A study of Mus musculus with 36 samples.

Results

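Txnip and the alpha-arrestin genes Arrdc1, Arrdc2, Arrdc3 and Arrdc4 are 5 of the 52230 genes to which the reads of 36 cultures of mouse hepatocytes were assigned. They were chosen by name, as the members of 1 gene family, at a time when earlier results of these data were known. All 5 passed the filter on low counts that left 12177 genes for testing. Arrdc5, the other gene of the family, had reads in 2 of the 36 cultures, with at most 1 read in a culture, and was not tested. The hepatocytes came from 3 female mice of the GCKR-P446L-EMI-B6N strain aged 14 weeks, of which mouse 1 and mouse 2 are labelled Gckr-446L and mouse 3 Gckr-446P/L. The 446L allele of the glucokinase regulatory protein (GKRP) carries leucine where the 446P allele carries proline. Cells were cultured for 24 h in medium with 5 mM glucose, with overnight culture in 10 nM dexamethasone and 10 nM insulin, and then incubated for 4 h with 25 mM glucose. There were 10 conditions. Untreated hepatocytes and hepatocytes with an adenoviral vector for human GKRP-446P (hP), human GKRP-446L (hL), mouse GKRP-446P (mP) or mouse GKRP-446L (mL) had endogenous glucokinase (GK) only. The other 5 conditions had an adenoviral vector for GK, alone (GK) or together with 1 of the 4 GKRP vectors (GK+hP, GK+hL, GK+mP and GK+mL). Untreated and GK had 2 cultures per mouse, which were summed, and the others had 1, so that every condition had 3 samples, 1 for each mouse. The labels name no condition with an empty vector, so that effects of adenovirus and effects of its insert cannot be told apart in a comparison with untreated hepatocytes. The study's methods describe hepatocytes of this strain as homozygous for 446L, so the genotype of mouse 3 is in doubt. If its label holds, genotype cannot be told apart from that animal.

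Alpha-arrestins are adaptor proteins with an arrestin fold and, in most members, PPxY motifs through which they recruit ubiquitin ligases of the Nedd4 family to membrane proteins, which are then internalised. Txnip also binds thioredoxin and inhibits it, and both Txnip and Arrdc4 restrain glucose uptake. In liver and other tissues these 2 genes are known targets of the glucose-sensing factors ChREBP and MondoA, which act with Mlx at carbohydrate response elements. GK phosphorylates the glucose that hepatocytes take up, and GKRP binds GK and holds it inactive in the nucleus.

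Since Txnip and Arrdc4 were called together in the same 4 comparisons, as described with the values, the 250 bases before the RefSeq start of each are shown, with motif matches in capitals. The sequences are those of the RefSeq promoter table (GRCm38.p6), and each had 1 exact match in GRCm39, the build of the reads. The Txnip window lies on the plus strand at chr3:96465023-96465272 and the Arrdc4 window on the minus strand at chr7:68398987-68399236, and both are printed 5′ to 3′ on the gene's strand.
Txnip: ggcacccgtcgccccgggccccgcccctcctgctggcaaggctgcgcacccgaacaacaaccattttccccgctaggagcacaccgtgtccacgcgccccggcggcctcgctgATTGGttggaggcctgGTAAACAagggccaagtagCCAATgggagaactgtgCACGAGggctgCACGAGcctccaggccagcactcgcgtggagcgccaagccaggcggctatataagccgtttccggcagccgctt
Arrdc4: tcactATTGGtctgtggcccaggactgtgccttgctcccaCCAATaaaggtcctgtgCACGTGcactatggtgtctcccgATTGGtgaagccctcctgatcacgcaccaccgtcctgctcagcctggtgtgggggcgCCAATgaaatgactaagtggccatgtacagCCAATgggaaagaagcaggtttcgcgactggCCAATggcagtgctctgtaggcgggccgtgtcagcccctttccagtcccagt
The letters searched, on both strands, were CACGTG (the E-box), 2 copies of CACGNG 5 bases apart, CCAAT and TGTTTAC (a forkhead motif). The pair was chosen after the Txnip sequence had been read. In the Txnip window the pair CACGAG and CACGAG lies from base 85 to base 69 before the start, and 15 of 32851 promoter windows of the same length (0.0457%) held such a pair. The same window had 1 CCAAT on each strand and the reverse of the forkhead motif, GTAAACA, from base 121 to base 115, a motif found in 3.17% of windows. The Arrdc4 window had 1 CACGTG from base 193 to base 188 (6.02% of windows hold one) and 6 matches of CCAAT, 4 on the gene's strand and 2 on the other (33.8% of windows hold at least 1). Among the other members, the Arrdc2 window had 3 matches of CCAAT, that of the first Arrdc3 start had 1, and the Arrdc1 window had none of the 4 motifs. The E-box reads the same on both strands, and no other matches overlapped. A match describes letters only.

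The libraries held between 3924674 and 10046158 reads (median 5980276). Gene counts are given in CPM, the reads of a gene scaled to library size after TMM normalisation. Mouse Gckr was between 8934 and 23273 CPM in the 12 cultures with a mouse GKRP vector and between 37.1 and 118 CPM in 23 of the other 24. The remaining culture, of GK in mouse 3 (replicate 5), had 1462 CPM of Gckr, and it stood apart from its label in this gene. Leaving it out changed no call of a member. The 10 hepatocyte markers summed to between 85062 and 148891 CPM, the 12 macrophage markers to between 288 and 392 CPM and the 8 endothelial markers to between 60.0 and 127 CPM, and the libraries thus had the markers of the labelled cell type. Of 8 stellate and 5 cholangiocyte markers 3 and 2 passed the filter, summing to between 19.5 and 152 CPM and between 14.5 and 243 CPM. No marker of these 5 lists was called in GK against the combined conditions, with both vectors against GK or with GKRP vectors against untreated. The share of all genes called there was 0.427%, 1.61% and 1.89%. With the mouse as a term 1 hepatocyte marker was called (Tat, 0.70 with both vectors against GK; 4.34% of genes called). In such bulk samples fewer cells of a type and less RNA per cell cannot be told apart.

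Txnip (ENSMUSG00000038393; chr3:96465267-96469201 of GRCm39, plus strand) had the widest range of the family, from 11.0 to 344 CPM over the 30 samples. In untreated hepatocytes it was 16.6, 44.8 and 123 CPM in mouse 1, mouse 2 and mouse 3. With GK it was 97.9, 274 and 344 CPM. The 3 mice kept their order in both conditions, and the untreated sample of mouse 3 was above the GK sample of mouse 1. With the GKRP vectors at endogenous GK, Txnip was 15.1, 17.3 and 22.1 CPM (hP), 13.1, 17.2 and 21.5 CPM (hL), 11.0, 21.1 and 21.8 CPM (mP) and 12.5, 24.6 and 31.6 CPM (mL) in the 3 mice. All 12 of these samples were at or below 31.6 CPM. With GK and a GKRP vector it was 13.9, 42.2 and 46.2 CPM (GK+hP), 30.04, 58.3 and 66.1 CPM (GK+hL), 13.0, 37.4 and 37.7 CPM (GK+mP) and 53.7, 152 and 192 CPM (GK+mL). The conditions with both vectors other than GK+mL did not overlap with GK alone, and GK+mL did. By mean and SD over 3 mice the order was GK (239 ± 127 CPM), GK+mL (132 ± 71.0), untreated (61.4 ± 54.9), GK+hL (51.5 ± 19.0), GK+hP (34.1 ± 17.6), GK+mP (29.4 ± 14.2), mL (22.9 ± 9.65), hP (18.2 ± 3.59), mP (18.0 ± 6.00) and hL (17.3 ± 4.20). Of the 9 pairs of neighbours in this order, 1 (GK+mL above untreated) differed by more than the larger of the 2 SDs, and none was free of overlap.

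Arrdc4 (ENSMUSG00000042659; chr7:68386742-68398999, minus strand) had the same 2 highest conditions and a smaller range. It was 5.84, 4.42 and 10.7 CPM in untreated hepatocytes of mouse 1, mouse 2 and mouse 3 and 10.7, 15.6 and 25.2 CPM with GK. All 15 samples with endogenous GK were below the lowest GK sample, and the untreated sample of mouse 3 came nearest to it. In the 4 GKRP conditions at endogenous GK it was between 2.96 and 6.35 CPM. It was 4.08, 5.66 and 4.06 CPM with GK+hP, 7.32, 7.13 and 7.58 CPM with GK+hL, 4.59, 4.92 and 5.30 CPM with GK+mP and 6.10, 12.2 and 18.0 CPM with GK+mL. As for Txnip, GK+mL was the 1 condition with both vectors that overlapped with GK alone. By mean and SD, GK (17.1 ± 7.36 CPM) was followed by GK+mL (12.1 ± 5.96), GK+hL (7.34 ± 0.226), untreated (6.97 ± 3.27) and GK+mP (4.94 ± 0.354), and the lowest was hL (3.63 ± 0.669). None of the 9 pairs of neighbours differed by more than the larger SD. Arrdc4 rested on few reads, between 13.1 and 175 in a culture with a median of 33.1, against a median of 208 for Txnip.

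**Figure D1:**
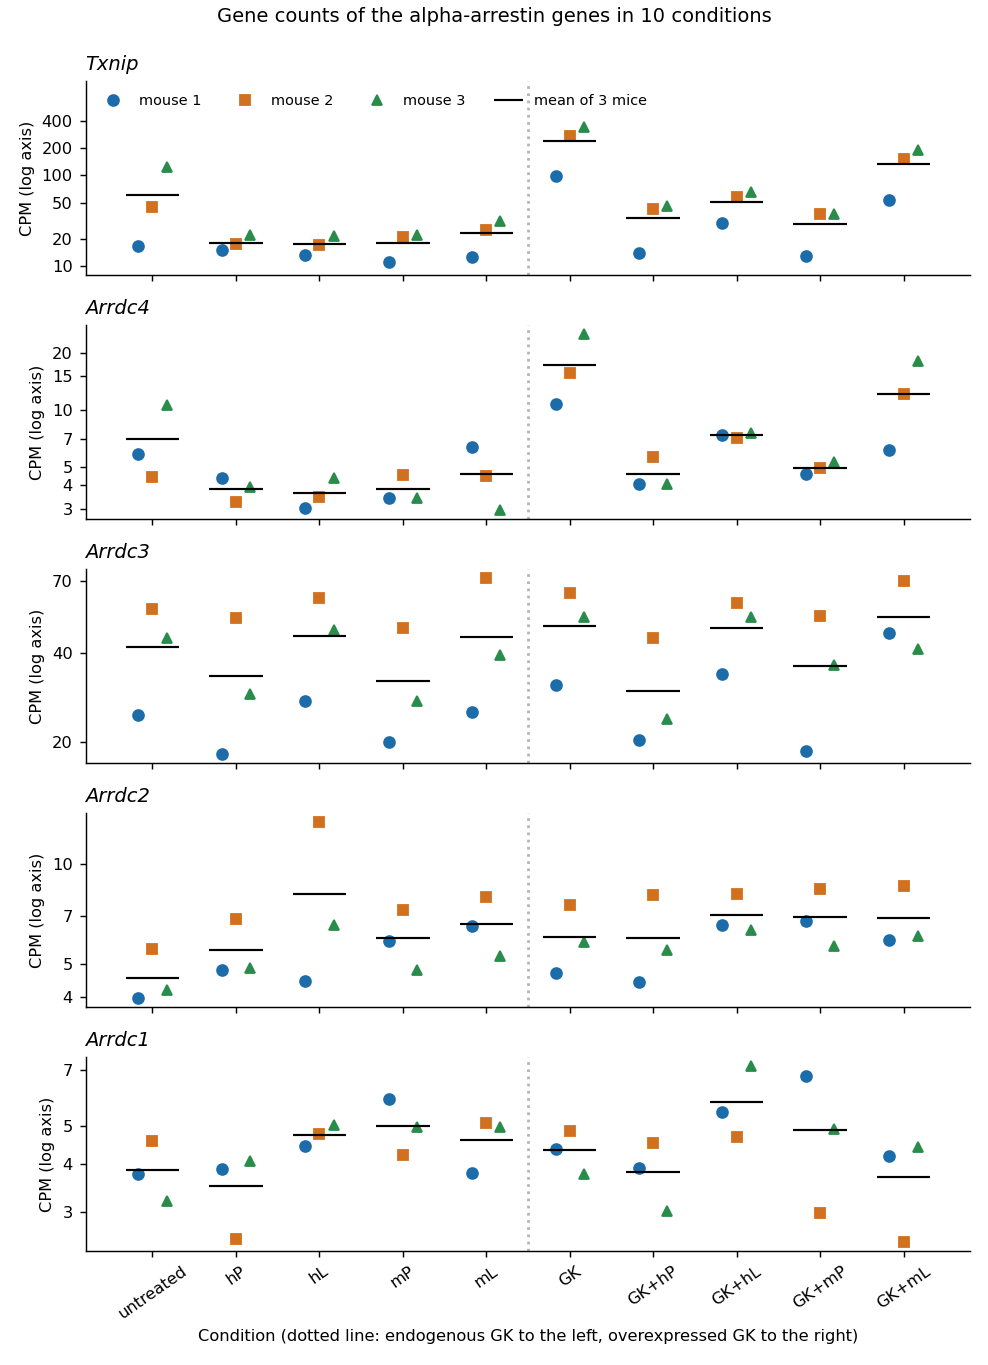
Gene counts (CPM, log axis) of the 5 alpha-arrestin genes in each of 10 conditions, with 1 point for each of 3 mice and a line for their mean. Txnip and Arrdc4 are highest with GK and second with GK+mL, while in Arrdc3 and Arrdc2 mouse 2 is highest in every condition and the conditions overlap.

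GK overexpression was first compared with the 5 conditions of endogenous GK combined, a comparison in which 4 of the 5 carry adenovirus too. The same 4 carry a GKRP vector, and over them Txnip had a log2 fold change of -1.69 against untreated hepatocytes. The combined reference is thus below untreated for Txnip, and the comparison does not give the effect of GK by itself. Txnip rose by 3.10 on the log2 scale (SE 0.465, an 8.56-fold change, edgeR adjusted p = 0.000345), and the difference was positive in 3 of 3 mice, at 2.83, 3.53 and 3.36. Arrdc4 rose by 1.89 (SE 0.262, 3.70-fold, adjusted p = 0.000112), at 1.22, 1.89 and 2.41 in the 3 mice. These were the 2 of 5 members called, where a call is an adjusted p under 0.05 with a fold of at least 1.3 or at most 0.7, and 52 of 12177 genes were called in all (0.427%). Arrdc3 had a log2 fold change of 0.31 (SE 0.343, adjusted p = 1.00), and it was higher in 3 of 3 mice. Without mouse 2 neither call was kept (Txnip 2.92, adjusted p = 0.148, and Arrdc4 1.86, adjusted p = 0.0760). That fit called 20 of 12256 genes in all. Both calls were also lost when counts were corrected for the length of the transcripts in each library (Txnip 2.44, adjusted p = 0.649, and Arrdc4 1.12, adjusted p = 0.641), a correction described with the transcripts. With it 11 of 12177 genes were called in all. Both calls were kept by DESeq2 and with the mouse as a replicate block. In the block fit Txnip was at 3.07 (SE 0.302, adjusted p = 2.26e-07) and Arrdc4 at 1.84 (SE 0.248, adjusted p = 3.59e-05), with 1.99% of genes called.

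Against untreated hepatocytes alone, GK gave no call among the 5 members, with 1 of 12177 genes called in all (0.00821%). Txnip had a log2 fold change of 1.96 (SE 0.619) with an adjusted p of 0.991, and 0.75 with the length correction. Arrdc4 had 1.29 (SE 0.344) with an adjusted p of 0.467, and both genes were higher in 3 of 3 mice. The unadjusted p was under 0.05 for these 2 members and for 249 of 12177 genes in all, and DESeq2 called neither member. With the mouse as a replicate block, which compares samples within a mouse, Txnip was called in GK against untreated hepatocytes (log2 fold change 2.09, SE 0.289, adjusted p = 0.000752; 0.361% of genes called) and Arrdc4 was not (adjusted p = 0.103). The within-mouse difference of Txnip was 2.54, 2.60 and 1.49 in mouse 1, mouse 2 and mouse 3.

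Addition of a GKRP vector to GK overexpression asks how far GKRP counters the effect of GK. These comparisons share the 3 GK samples. Txnip fell by 2.80 on the log2 scale with GK+hP (SE 0.644, 0.143-fold, adjusted p = 0.0324) and by 3.03 with GK+mP (SE 0.652, 0.123-fold, adjusted p = 0.0125). Its log2 fold change was -2.21 with GK+hL (SE 0.629, adjusted p = 0.164) and -0.85 with GK+mL (SE 0.603, adjusted p = 1.00). Within the mice, the difference for GK+hP was -2.79, -2.69 and -2.89, and for GK+mL it was -0.86, -0.85 and -0.85, so that the 3 mice differed little from each other in either comparison. Arrdc4 fell by 1.90 with GK+hP (SE 0.360, adjusted p = 0.00672) and by 1.79 with GK+mP (SE 0.359, adjusted p = 0.00717), and its log2 fold change was -1.22 with GK+hL (SE 0.352, adjusted p = 0.175) and -0.50 with GK+mL (SE 0.342, adjusted p = 1.00). Thus 2 of 5 members were called with each of the 446P vectors and 0 with each of the 446L vectors, where the share of all genes called was 0.879% for GK+hP, 1.64% for GK+mP, 0.599% for GK+hL and 0.591% for GK+mL. Txnip in GK+hL was called by DESeq2 and, without mouse 1, by edgeR (adjusted p = 0.0204). With the replicate block Txnip was also called in GK+hL (-2.11, SE 0.293, adjusted p = 0.000103; 2.54% of genes called), and Arrdc3 in GK+hP (adjusted p = 0.0118; 3.27% of genes called). The block fit kept the calls of Txnip and Arrdc4 in GK+hP (adjusted p = 3.22e-06 and 0.00145). It kept them in GK+mP too (adjusted p = 1.15e-06 and 0.00162; 6.36% of genes called). DESeq2 called both genes in both comparisons. In edgeR without the block, neither Txnip nor Arrdc4 was called in GK+hP or GK+mP without mouse 2 or without mouse 3. The adjusted p was there from 0.149 to 0.717. For GK+hP and GK+mP 67 and 122 of 12256 genes were called without mouse 2, and 14 and 29 of 12170 without mouse 3. The log2 fold change of Txnip was then -2.87 and -2.73 for GK+hP and -3.13 and -2.90 for GK+mP, and that of Arrdc4 -2.14 and -1.43 for GK+hP and -1.86 and -1.48 for GK+mP. In the model that joins the 5 endogenous conditions into 1 group, Arrdc4 in GK+mP was the 1 call left (adjusted p = 0.0447), with the same log2 fold changes, and with the length correction there was none (0.546 to 0.706). For GK+hP and GK+mP that model called 13 and 33 of 12177 genes in all, and the fit with the length correction 7 and 5.

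Over the 4 conditions with both vectors, Txnip fell by 2.22 against GK alone (SE 0.421, adjusted p = 0.00345) and Arrdc4 by 1.35 (SE 0.250, adjusted p = 0.00275), each lower in 3 of 3 mice. These were the 2 of 5 members called, with 1.61% of all genes called. DESeq2 called both as well, as did edgeR with the replicate block (adjusted p = 1.42e-07 and 0.00064; 4.34% of genes called). The further fits were without the block. Both calls were lost without mouse 2 (adjusted p = 0.196 and 0.0995) and without mouse 3 (0.188 and 0.150), and with the length correction (0.664 and 0.769). These fits called 138 of 12256, 28 of 12170 and 17 of 12177 genes in all. Without mouse 2 and without mouse 3 the log2 fold change was -2.27 and -2.15 for Txnip and -1.46 and -1.08 for Arrdc4, and with the length correction it was -1.75 and -0.82.

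GKRP vectors at endogenous GK were compared with untreated hepatocytes, and these comparisons share the 3 untreated samples. Averaged over the 4 vectors, Txnip fell by 1.69 (SE 0.437, 0.309-fold, adjusted p = 0.0403), the 1 member called, with 1.89% of all genes called. The within-mouse differences were -0.36, -1.17 and -2.34 in mouse 1, mouse 2 and mouse 3, in the order of the untreated levels of Txnip. The untreated level is part of each difference, so this order is not a separate result. The call was lost without mouse 2 (-1.92, adjusted p = 0.319) and without mouse 3 (-0.93, adjusted p = 1.00), and with the length correction the value was -2.89 (adjusted p = 0.0123). These fits called 140 of 12256, 39 of 12170 and 284 of 12177 genes in all. Arrdc4 had a log2 fold change of -0.82 (SE 0.265, adjusted p = 0.152), which was -0.36 without mouse 3 and 0.0053 with the length correction. For single vectors 0 of 5 members were called by edgeR and by DESeq2, with 0.78% of genes called for hP, 0.879% for hL, 1.12% for mP and 1.05% for mL. The log2 fold change of Txnip was between -1.82 and -1.42 (adjusted p from 0.324 to 0.615), and it was lower than untreated in 12 of 12 samples of the same mouse. Without mouse 1, Txnip was called for hP, hL and mP (adjusted p = 0.0367, 0.0348 and 0.0294). Without mouse 3 its log2 fold change was -0.95 for hP, -1.05 for hL, -0.96 for mP and -0.76 for mL, and with the length correction it was between -3.16 and -2.32, with no call. At an unadjusted p under 0.05 there were 2 members for hP, 3 for hL, 2 for mP and 1 for mL. Of all 12177 genes there were 739 for hP, 905 for hL, 856 for mP and 816 for mL. With the replicate block Txnip was called with each of the 4 vectors (adjusted p from 0.00346 to 0.0186; 2.46%, 2.97%, 3.31% and 3.16% of genes called for hP, hL, mP and mL).

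The effect of GK was also taken in the presence of each GKRP vector, against the same vector at endogenous GK. Txnip had a log2 fold change of 0.91 with hP (SE 0.625), 1.56 with hL (SE 0.634), 0.71 with mP (SE 0.627) and 2.53 with mL (SE 0.644). The value with mL was positive in 3 of 3 mice, at 2.08, 2.61 and 2.59. No member was called in these 4 comparisons by edgeR (adjusted p of 0.350 or more), where 0% of genes were called for hP, hL and mP and 0.0164% for mL. At an unadjusted p under 0.05 there were 2 members for hL, 2 for mL and 0 for hP and mP. Of all 12177 genes there were 262 for hL, 655 for mL, 151 for hP and 608 for mP. DESeq2 called Txnip for mL, as did edgeR without mouse 1 (adjusted p = 0.0417) and with the replicate block (2.46, SE 0.304, adjusted p = 0.000270; 0.246% of genes called). Arrdc4 had 1.39 with mL (SE 0.364, adjusted p = 0.350), with -0.05, 1.39 and 2.50 in the 3 mice. Whether the effect of GK differed with and without a vector was tested by the interaction. For Txnip it was between -1.25 and 0.57 on the log2 scale (SE 0.857 to 0.869) and for Arrdc4 between -1.03 and 0.10 (SE 0.490 to 0.507). No member was called (edgeR adjusted p of 1.00, no unadjusted p under 0.05, 0 calls by DESeq2, 0% of all genes called). Of all 12177 genes 211, 289, 286 and 207 had an unadjusted p under 0.05 with hP, hL, mP and mL. With the replicate block edgeR called no member either, but the Txnip interaction had an unadjusted p of 0.00369 with hP (-1.35, SE 0.412, adjusted p = 0.772) and 0.00206 with mP (-1.45, SE 0.413, adjusted p = 0.546). The within-mouse values were negative in 3 of 3 mice for both, at -2.65, -1.33 and -0.43 with hP and -2.30, -1.78 and -0.70 with mP.

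The 446L and 446P forms were compared directly. With GK, Txnip was higher with mL than with mP in 3 of 3 mice, by 2.02, 2.02 and 2.34, and the log2 fold change was 2.18 (SE 0.633, 4.52-fold). In this comparison edgeR called 0 of 5 members (Txnip adjusted p = 1.00; 0.0164% of genes called), as did DESeq2. An unadjusted p under 0.05 was found for 2 members and for 427 of 12177 genes in all. With the replicate block Txnip was called (2.13, SE 0.298, adjusted p = 0.00272; 0.214% of genes called). The difference between hL and hP with GK was 0.59 for Txnip (SE 0.614, adjusted p = 1.00), at 1.09, 0.46 and 0.51 in the 3 mice. Arrdc4 was 1.29 higher with mL than with mP (SE 0.362) and 0.68 higher with hL than with hP (SE 0.365) on the log2 scale, and both missed the threshold (adjusted p = 1.00). At endogenous GK the difference of Txnip was -0.06 for hL against hP (SE 0.632) and 0.36 for mL against mP (SE 0.629). No member was called in these 3 comparisons either (0% of genes called, with 1 member at an unadjusted p under 0.05 with GK and 0 at endogenous GK, and no call of a member by DESeq2). Of all 12177 genes 255 had an unadjusted p under 0.05 for hL against hP with GK. At endogenous GK 211 did for hL against hP and 153 for mL against mP. Whether the difference between 446L and 446P differed between the mouse and the human vectors was not tested. Mouse Gckr was 10944, 9010 and 14485 CPM with GK+mL and 14778, 14382 and 20146 CPM with GK+mP in the 3 mice. Its mean was 14279 CPM with mL and 17627 CPM with mP. The 446L and 446P vectors thus differed in Gckr level too, and the part of this in the Txnip difference was not tested. Reads were assigned to mouse transcripts, so the level of the human vectors is not known here.

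**Figure D2:**
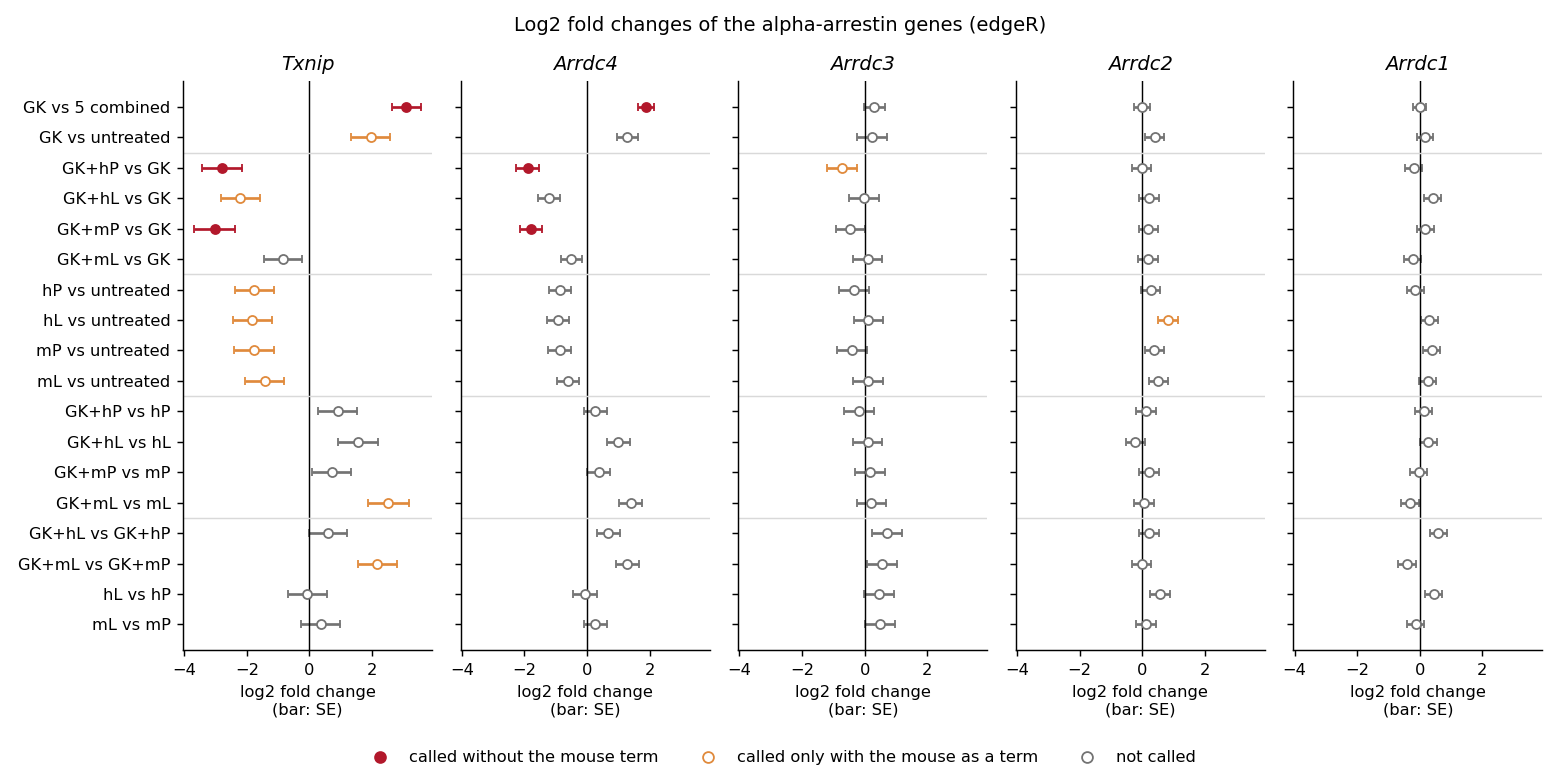
Log2 fold changes of the 5 alpha-arrestin genes (edgeR, 3 mice per condition, bars are SE) in 18 comparisons, filled red where called without the mouse term and open orange where called only with the mouse as a term. Txnip and Arrdc4 lie to the right for GK (3.10 and 1.89 against the 5 combined conditions) and to the left when a GKRP vector is added, least so for GK+mL, and the other 3 genes lie between -0.73 and 0.83.

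The other 3 members were not called in any of the 24 comparisons by edgeR, and their 72 log2 fold changes lay between -0.73 and 0.83. With the replicate block 3 of these 72 were called, in comparisons where that fit called 3.27%, 2.97% and 4.16% of all genes. The 72 cover all 24 comparisons, and in some of the others that fit called 0% of genes. Arrdc3 (ENSMUSG00000074794; chr13:81031409-81044161, plus strand), which takes part in the trafficking and degradation of the beta2-adrenergic receptor, differed more between mice than between conditions. It was 24.6, 56.3 and 44.8 CPM in untreated hepatocytes and 31.1, 63.7 and 53.1 CPM with GK. Mouse 2 had the highest Arrdc3 in all 10 conditions. Its condition means ran from 29.7 ± 13.3 CPM (GK+hP) to 52.8 ± 15.4 CPM (GK+mL), and none of the 9 neighbours differed beyond the larger SD. For GK+hP it was 20.2, 44.9 and 24.0 CPM, lower than GK in 3 of 3 mice, and the log2 fold change of -0.73 (SE 0.478, adjusted p = 0.989) was called only with the replicate block (SE 0.174, adjusted p = 0.0118).

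Arrdc2 (ENSMUSG00000002910; chr8:71287770-71292364, minus strand), the less studied paralogue, was 3.96, 5.55 and 4.17 CPM in untreated hepatocytes, the lowest condition by mean (4.56 ± 0.862 CPM). It was 4.45, 13.4 and 6.54 CPM with hL, the highest condition, where mouse 2 set the mean (8.12 ± 4.67 CPM). Against untreated, hL gave 0.83 (SE 0.311, adjusted p = 0.407) and the mean of the 4 vectors 0.50 (SE 0.251, adjusted p = 0.563), and both were called only with the replicate block (adjusted p = 0.0136 and 0.0397; 2.97% and 4.16% of genes called). Arrdc1 (ENSMUSG00000026972; chr2:24815286-24825338, minus strand), which drives the budding of vesicles at the plasma membrane together with Tsg101, was 3.76, 4.57 and 3.20 CPM in untreated hepatocytes and 4.36, 4.87 and 3.75 CPM with GK. Its condition means lay between 3.50 and 5.76 CPM and neighbours in their order overlapped. It had the fewest reads, between 8.97 and 45.3 in a culture, and the 2 cultures of 1 mouse and condition differed by up to 2.79-fold, against at most 1.49-fold for Arrdc4, 1.48-fold for Txnip, 1.44-fold for Arrdc2 and 1.42-fold for Arrdc3.

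In untreated hepatocytes and with GK, Txnip differed more between mice than between the 2 cultures of a mouse. Txnip in mouse 3 was above mouse 1 in all 10 conditions, by between 1.47-fold (hP) and 7.37-fold (untreated). The ratio was 3.52 for GK and 3.57 for GK+mL. Arrdc4 in mouse 3 was above mouse 1 by 1.83-fold in untreated hepatocytes and 2.35-fold with GK, and it was below mouse 1 with mL (0.466-fold). No test of genotype was possible with 1 mouse labelled 446P/L.

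Levels of different genes can be set side by side only per length, so TPM as deposited were used for that. Summed over all transcripts of a gene and averaged over 3 mice, Txnip was 58.5 ± 46.8 TPM in untreated hepatocytes and 112 ± 71.4 TPM with GK, while Arrdc3 was 17.4 ± 8.23 and 14.9 ± 4.01 TPM. Arrdc1 (3.72 and 4.60 TPM), Arrdc2 (2.24 and 4.15 TPM) and Arrdc4 (2.05 and 5.50 TPM) were lower than Arrdc3 in both conditions. Counting only coding transcripts of more than 1000 bases, Txnip was 13.2 ± 10.0 TPM in untreated hepatocytes and 84.3 ± 40.0 TPM with GK. Arrdc3 was then 5.69 ± 2.34 and 10.3 ± 3.36 TPM, so that its level was lower and its direction turned. In mouse 2, for example, Txnip in untreated hepatocytes was 94.8 TPM over all transcripts and 10.3 TPM over these coding ones. The rest of the TPM was in 4 noncoding transcripts of 393 to 694 bases. Txnip-205, a retained intron of 424 bases, held 2.32% of the reads of the gene and 24.6% of its mean TPM. The effective length of Txnip, averaged over its transcripts with their TPM as weights, ran from 23.8 to 2654 bases over the 36 libraries. The length correction uses this average, in which short transcripts with few reads can weigh much. Txnip-201 (2795 bases) and Txnip-202 (2827 bases), both coding, held 38.8% and 56.8% of the reads. The share of Txnip-201 in the reads of both ranged from 43.3% to 45.2% over the mice with GK, and it was 0% in all 3 mice with hP and from 62.8% to 85.9% with hL. Reads of near-identical transcripts are divided by estimation, so these shares are uncertain at the depth of the low conditions. Arrdc4-201 (3905 bases) held 81.0% of Arrdc4 reads and Arrdc3-201 (4101 bases) 78.3% of Arrdc3 reads.

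Across the 30 samples, after the mean of each mouse was subtracted from log2 CPM, Txnip and Arrdc4 had Pearson's r = 0.92, and within mouse 1, mouse 2 and mouse 3 r was 0.80, 0.97 and 0.96. Txnip and Arrdc3 had r = 0.54 and Arrdc3 and Arrdc4 r = 0.51, while r of Txnip with Arrdc1 was -0.15 and with Arrdc2 -0.04. These values describe samples that share mice and vectors. Among the 9232 other genes with a mean of at least 5 CPM, those most like Txnip were Klf10 (r = 0.96), Ddhd2 (0.95), Rgs16 (0.95), Tkfc (0.94) and Slc25a44 (0.94). Among the 5 most like Arrdc4 were Tkfc (r = 0.92), Rgs16 (0.91), Glul (0.91) and Slc25a47 (0.90), and 2 genes were in both lists. Arrdc3 was most like Ppp1r3b (r = 0.91), Tiparp (0.90) and Egln3 (0.87), Arrdc2 most like Selenbp1 (0.80), Stbd1 (0.77) and Alas1 (0.76), and Arrdc1 most like Lsm2 (0.66), Sult2a1 (0.65) and Ubac2 (0.64), all over the same 30 samples.

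**Figure D3:**
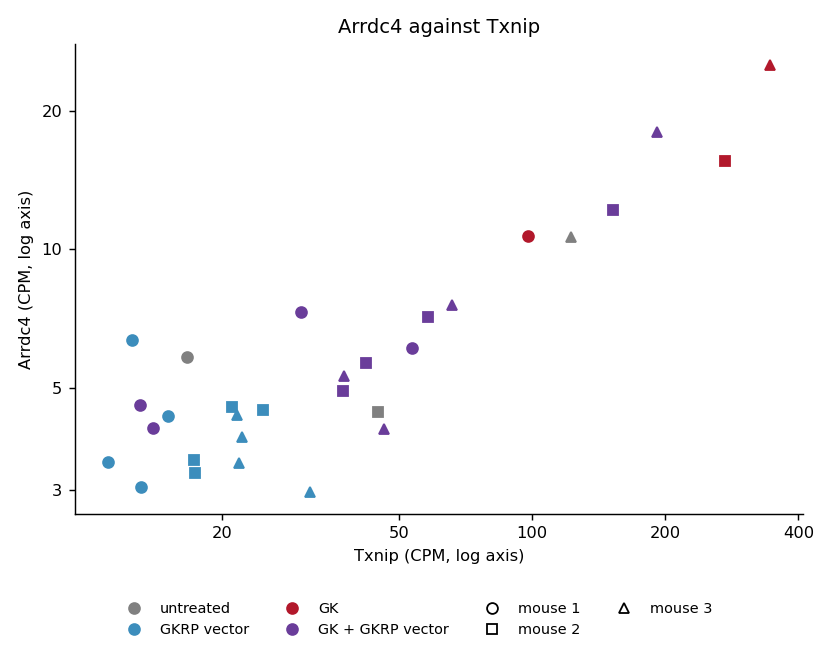
Arrdc4 against Txnip in 30 samples, in CPM on log axes, with colour for the vectors and shape for the mouse. Arrdc4 is highest where Txnip is highest (r = 0.92 after centring within mouse).

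The genes around the family were described by lists. Of 18 tested genes known to respond to glucose through ChREBP, several were named by the study itself on these samples. In GK against the 5 combined conditions 12 of the 18 rose and 0 fell, where 0.427% of all genes were called. Their median log2 fold change was 1.35, against -0.01 over all genes. Among the largest were G6pc1, the catalytic subunit of glucose-6-phosphatase (3.17, SE 0.550), Rgs16, a regulator of G-protein signalling (3.14, SE 0.346), Angptl8 (2.43, SE 0.273), Klf10 (2.24, SE 0.246) and the glucose transporter Slc2a2 (1.95, SE 0.434). The rise of Txnip lay between those of Rgs16 and Angptl8. Over the 4 conditions with both vectors 9 of the 18 fell against GK (median -1.01; 1.61% of all genes called). Among them were Rgs16 (-2.15, SE 0.332), Angptl8 (-1.70, SE 0.267), Klf10 (-1.59, SE 0.250) and Pklr, the liver pyruvate kinase (-1.37, SE 0.239). With GKRP vectors at endogenous GK 0 of the 18 were called (median -0.23; 1.89% of all genes called). An unadjusted p under 0.05 was found for 6 of the 18 and for 1140 of 12177 genes in all. With the replicate block 4 of the 18 were called, and 4.16% of all genes.

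No gene was called in any of these 3 comparisons among the 16 tested genes of the thioredoxin system, the 10 of the Nedd4 ligases and their adaptors, the 8 of cargo and budding partners, the 9 of ChREBP, Mlx and other E-box factors, the 5 of other arrestin-fold genes and the 15 of glucocorticoid and FoxO genes. The share of all genes called was 0.427%, 1.61% and 1.89%. For lists of this size no call is near that share, and it is not a result about the lists. The thioredoxin system, which includes Txn1, the protein that Txnip inhibits, and its reductases and peroxiredoxins, lay between -0.11 and 0.19 in GK against the 5 combined conditions, with 0 unadjusted p under 0.05. Txn1 itself was at 0.12 and the thioredoxin reductase Txnrd1 at 0.03. The Nedd4 ligases lay between -0.07 and 0.37, with 2 unadjusted p under 0.05, and the transporter Slc2a1, a cargo of Txnip, was at 0.10. Of all 12177 genes 950 had an unadjusted p under 0.05 in GK against the 5 combined conditions. With the replicate block, Mlxipl, which encodes ChREBP, was called in GK against the 5 combined conditions (0.65, SE 0.148, adjusted p = 0.0166; 1.99% of genes called), as was Igfbp1 (0.61), and over both vectors against GK the insulin receptor Insr (-0.54, adjusted p = 0.0164) and the Max partner Mnt (0.71, adjusted p = 0.0159) were called (4.34% of genes called). Mlxipl (0.57), Mnt (0.71) and Klf9 (0.40) were called with the GKRP vectors against untreated in that fit (4.16% of genes called). These genes, Txn1, Txnrd1 and Slc2a1 were picked for naming after their values were seen.

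**Figure D4:**
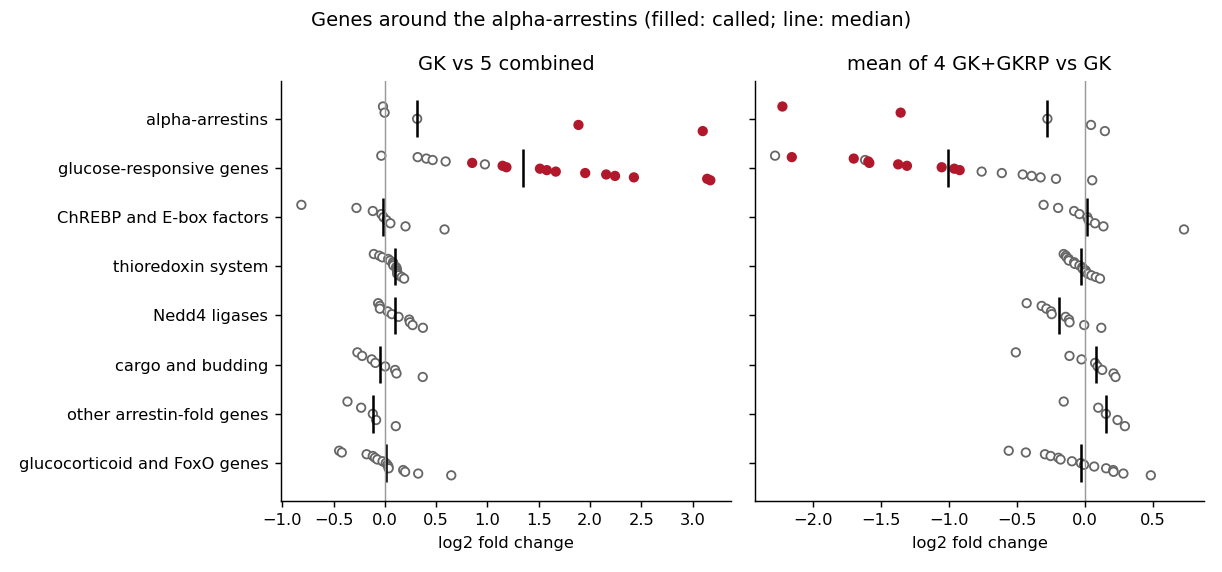
Log2 fold changes of the genes of 8 lists in GK against the 5 combined conditions (left) and in the mean of the 4 conditions with both vectors against GK (right), 1 point for each gene, filled where called and with a line at the median. The alpha-arrestins Txnip and Arrdc4 and the glucose-responsive genes hold all calls, with medians of 1.35 and -1.01 for the latter.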

How the data were processed

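RNA from 36 hepatocyte cultures was sequenced, and the authors quantified transcripts with Salmon 1.4.0 on the Gencode mouse transcriptome (GRCm39). FastQC is also named in the submitters' notes. The deposited files give estimated counts per transcript, not normalised, and TPM, which the authors' tool scales by effective length and library. Estimated counts were summed per gene (137570 of 139225 transcripts matched the annotation; the others held 0.392% to 0.639% of reads), the 2 cultures of a mouse and condition were added, and sums were rounded. Library totals were between 3924674 and 10046158 reads, and their precision is lowest for Arrdc1.

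Genes were filtered with filterByExpr, normalised by TMM and tested with edgeR 4.0.16 (quasi-likelihood, 10 conditions, all samples; for the combined comparison, 6 groups) in R 4.3.3, with Benjamini-Hochberg adjustment over 12177 genes. A call needed an adjusted p under 0.05 and a fold of at least 1.3 or at most 0.7. CPM of cultures and of summed samples were normalised separately. Mice gave 1 sample to each condition and so pair the samples. Deviations from condition means had a mean r of 0.223 over 135 pairs from the same mouse and -0.110 over 270 from different mice. Alternatives were DESeq2 1.42.0, the mouse as a replicate block, other size factors, no filter, no fold threshold, cultures as samples, a transcript length offset and leaving out each mouse or the culture that stood apart. Without a mouse term the p-values take the samples as independent, although the same 3 animals recur in every condition. The combined comparison takes the 15 endogenous samples of these animals as 1 group. With the mouse as a block, differences between animals are taken out of the spread. On simulated counts with 200 genes changed by a fold of 2, 15.5% were recovered for GK against untreated (12009 genes) and 44% against the combined conditions (11981 genes). The simulated samples were independent, with no differences between mice or between the endogenous conditions, so these rates do not give the power in the real data.

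The members and gene lists were chosen with earlier results of these data known. Beyond the members, the text names up to 6 called genes of a list by size of change, the 5 genes most like Txnip and Arrdc4 and the 3 most like the others, and any exception is stated. Tables were handled in Python 3.11.15. Promoter sequences are from RefSeq. Some genes that these rules would name are not reported here.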

Additional observations from a re-analysis of the deposited data

Results flagged for a closer look

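Gckr in 1 of the 6 GK cultures (mouse 3, replicate 5) was 1462 CPM against a median of 68.8 CPM, a gap to the next culture beyond Dixon's critical value of 0.625 for 6 samples. Of 14 groups tested in this way 1 stood out, and chance gives about 1 in 20. Without this culture Txnip in GK against the 5 combined conditions was at 3.02 (edgeR adjusted p = 0.000424).

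At endogenous GK, the log2 ratio of Txnip between the 446L and 446P vectors was -0.080 ± 0.10 (SD, n = 3 mice) for the human vectors and 0.311 ± 0.19 for the mouse vectors, negative in all mice for the former and positive in all for the latter. With GK, the ratio of Arrdc1 was 0.558 ± 0.57 for the human and -0.344 ± 0.27 for the mouse vectors, again with opposite signs in all mice. Neither difference was tested. With the transcript length offset the opposite signs were gone, with fitted log2 fold changes of Txnip of -0.14 for the human and -0.76 for the mouse vectors, and of Arrdc1 of 0.67 and 0.92.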

How the results depend on the processing

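With the mouse as a replicate block, 1 member was called in GK against untreated, GK+hL against GK, hP, mP and mL against untreated, GK+mL against mL and GK+mL against GK+mP, and 2 in hL and in the mean of GKRP vectors against untreated. For GK+hP against GK the count went from 2 to 3, and no other count of called members changed. With DESeq2 the count was 1 for GK+hL against GK and for GK+mL against mL (143 of 13568 and 39 of 11917 genes called in all). With DESeq2 and the replicate block it was 1 for hP, mP and mL against untreated, GK+hL against hL and GK+hL against GK+hP. It was 2 for GK against untreated, GK+hL against GK, hL against untreated, GK+mL against mL and GK+mL against GK+mP. It was 3 for GK+hP against GK, where Arrdc3 was the added member, and for the mean of GKRP vectors against untreated. In these comparisons that fit called from 24 (GK+hL against hL) to 602 genes (mean of GKRP vectors) in all. With the 36 cultures as samples the count of members was 1 for GK against untreated (39 of 12281 genes called) and 2 for the mean of GKRP vectors (417 called). With the block added it was 2 for GK against untreated, GK+hL against GK and hL, 3 for the mean of GKRP vectors and 1 for hP, mP, mL, GK+mL against mL and GK+mL against GK+mP, where from 12 (GK+mL against GK+mP) to 707 genes (mean of GKRP vectors) were called. In the 6-group model it was 0 for GK+hP and 1 for GK+mP (13 and 33 of 12177 genes called).

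With the transcript length offset the count was 0 for GK+hP, GK+mP and the mean of both vectors against GK and for GK against the 5 combined conditions. In that order 7, 5, 17 and 11 of 12177 genes were called in all. Several log2 values turned with this offset. Txnip was at -0.76 for mL against mP and 0.53 and 1.19 for the interactions with hP and hL. Arrdc4 was at 0.022, 0.16, 0.042 and 0.0053 for hP, hL, mL and the mean of GKRP vectors against untreated, -0.51 for GK+hP against hP, 0.14 for hL against hP and -0.19 for the interaction with mL. Arrdc3 was at -0.17 for GK against the 5 combined and 0.38 for GK+hP, and Arrdc1 at 0.92 for GK+mL against GK+mP. The cause was not tested.

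Leaving out each mouse in turn, the count ran from 0 to 2 for GK against the 5 combined conditions, GK+hP, GK+mP and the mean of both vectors, and from 0 to 1 for GK+hL, hP, hL, mP, the mean of GKRP vectors and GK+mL against mL. Values that changed sign then ran from -0.017 to 0.43 (Arrdc4 in GK+hP against hP), -0.22 to 0.14 (Arrdc4 in hL against hP), -0.13 to 0.44 (Arrdc4 in mL against mP), -1.05 to 0.055 (Arrdc4 in mL against untreated), -0.60 to 0.60 (Arrdc4 in the interaction with mL), -0.12 to 0.81 (Txnip in the interaction with mL). The mean log2 ratio of GK to untreated in TPM was 1.46 for Txnip, 0.36 for Arrdc1, 0.89 for Arrdc2 and -0.14 for Arrdc3, and in TPM of coding transcripts, an alternative chosen after seeing the data, 2.81 for Txnip, 1.38 for Arrdc1, 1.54 for Arrdc2 and 0.87 for Arrdc3. Low read numbers limit Arrdc1, Arrdc2 and Arrdc4.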
